A study of Mus musculus with 2 samples.

Results

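Tlr4, Tbk1, Ikbkb and Hspd1 are 4 genes of innate immune signaling that were measured with 1 probe each on arrays of the aged mouse hippocampus. They were matched by gene symbol in the mRNA sheet of the study's supplementary probe table, whose copy used here names 437 genes, and each array carries 60930 probes in all. The genes in that sheet had passed the authors' fold change filter on the same arrays, and the 4 genes were chosen by their lower signal after surgery in this same comparison. Their ratios are therefore a description, and no test was made on them. The control array was hybridized with RNA from male mice, labelled C57 and given as C57BL/6 in the study's methods, that received no specific treatment. The surgery array was hybridized with RNA from male C57BL/6 mice on day 3 after unilateral nephrectomy, in which the left kidney was removed under ketamine and xylazine anesthesia with local ropivacaine. All mice were 16 to 18 months old, and the RNA of 3 hippocampi was pooled for each array. The study's methods state that the array assay was repeated, but 1 array per group was available here. With 1 array of 1 pool in each group, no array value has a replicate check. The effects of the operation, the anesthetics and the pool cannot be told apart. The study's PCR measurements covered none of the 4 genes. Whole hippocampus was used, so that fewer cells of a type and less RNA per cell cannot be told apart either.

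Toll-like receptor 4, encoded by Tlr4, is the cell surface receptor for bacterial lipopolysaccharide and for some proteins released from injured cells, and in the brain it is best known from microglia. From the receptor, one branch of the signal passes through the adaptor MyD88 to the IκB kinase complex, whose catalytic subunit IKKβ (Ikbkb) phosphorylates IκB and so frees NF-κB to enter the nucleus. Another branch passes through the adaptor TRIF to TANK-binding kinase 1 (Tbk1), which phosphorylates IRF3 for the induction of type I interferon and also phosphorylates autophagy receptors. Hspd1 encodes HSP60, the mitochondrial chaperonin that folds imported proteins and that has been described as a stimulus of Toll-like receptors when it is outside the cell.

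The probe sequences are shown because each value below rests on 1 such oligonucleotide, and because they show which stretch of each transcript was read. They are those of the study's supplementary probe table, 5′ to 3′. All are in lower case but for 3 capitals in the Hspd1 probe, which mark the start codon of the protein.
Tlr4: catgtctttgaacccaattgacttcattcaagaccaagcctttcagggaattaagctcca
Tbk1: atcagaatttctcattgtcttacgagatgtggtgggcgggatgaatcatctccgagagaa
Ikbkb, the first 30 of 60 bases: tgagtatgtaaatgagagctctatgctaca
Hspd1: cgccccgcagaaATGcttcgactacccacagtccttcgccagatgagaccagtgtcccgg

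The probes lie at different places along their genes, given here with gene limits from RefSeq on GRCm38.p6 and probe positions from the supplementary table. The table names no build, but 419 of its 422 mRNA transcripts that could be matched by symbol (99.3%) lie inside the GRCm38.p6 limits of their gene, to within 1 kb. Tlr4 (NM_021297) is on chromosome 4 at 66827551 to 66846581 on the plus strand, and its probe covers 60 bases at 66839594 to 66839654, 63.3% of the way along the gene, with no intron inside it. Tbk1 (NM_019786) is on chromosome 10 at 121546455 to 121586794 on the minus strand, and its 60 bases are spread over 4276 bases of the genome, so that the probe crosses an exon junction. The Ikbkb gene (NM_010546) is on chromosome 8 at 22659205 to 22706589 on the minus strand. Its probe spans 722 bases of the genome 45.2 kb from the start of the gene, near the 3′ end, and in none of its reading frames is it free of a stop codon. Hspd1 (NM_010477) is on chromosome 1 at 55077833 to 55088243 on the minus strand. Its probe lies 0.465 kb from the start of the gene and spans 886 bases, and the bases from the start codon on encode the beginning of the presequence that directs HSP60 into mitochondria. The Tbk1 and Hspd1 probes had 45.0% and 61.7% G and C, and the probes of Tlr4 and Ikbkb had 41.7% each. RefSeq lists 23 pseudogenes named after Hspd1 and 0 after each of the other 3 genes. The probe table lists 0 further transcripts for cross-hybridization with any of the 4 probes, and a share of the Hspd1 signal from pseudogenes was not tested.

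The array, an Arraystar mouse lncRNA array made by Agilent, has 61500 spots besides its controls. Spots well above background made up 76.3% of them in the control and 73.6% after surgery, with median processed signals of 98.8 and 89.7 arbitrary units. The processed signal is the brightness of a spot after background correction within its array. Ratios are given as log2 of surgery over control after quantile normalization, which sets the distribution of all signals equal on both arrays. The median ratio of the 44044 probes detected on both arrays was 0.04, and without normalization between arrays it was -0.07. The error beside a signal or ratio is the one that the scanner software gives for the spot, and it covers neither mice nor pools. No spot of the 4 genes was saturated or marked as an outlier.

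Tlr4, the receptor of the set, was at the limit of detection. Its processed signal was 31.7 ± 4.54 in the control and 4.92 ± 3.72 after surgery, with 1 spot on each array. The control spot was well above background and the surgery spot was not. The control spot was brighter than 308 of the 308 negative control spots, which are designed not to bind mouse RNA, and the surgery spot was brighter than 295 of 308 (95.8%). The median pixel of the spot, before any background correction, was 82 in the control and 52 after surgery, which is 3.73 and 2.48 times the local background. Since the surgery value is only a bound, the normalized control signal was set against the dimmest signal still called well above background after surgery, 18.9. With the processed signal, Tlr4 was then at least 1.62-fold lower after surgery, a log2 ratio of -0.70 or less. This bound holds for that processing only and leaves out the error of the control spot. Another background correction, normexp, gave a ratio of -0.58. The ratio of the measured values was -2.64 with a spot error of 1.11, so that the size of the difference is poorly determined. In the authors' normalized table, Tlr4 after surgery has the lowest value of the column, 2.328 on the log2 scale, which 7680 of 60902 probes share.

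Of the 3 genes detected on both arrays, 3 were at least 2-fold lower after surgery, while 1.95% of all detected probes were that much lower and 1.47% that much higher. The choice of the genes fixed this count, and nothing is read from it. Their positions among the other probes differed, as described for each gene.

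Ikbkb had the largest drop of the 3. Its processed signal was 351 ± 35.3 in the control and 86.5 ± 9.45 after surgery, and both spots were well above background. The log2 ratio was -1.86 ± 0.21, a 3.64-fold lower signal after surgery. After normalization the surgery array thus held 27.5% of the control signal for this IκB kinase, and 43 of the 44044 detected probes (0.0976%) had a lower ratio. Its distance from a 2-fold drop was 4.03 spot errors. This gene stood apart from Tbk1 and Hspd1 in the amount of its drop, and 2 properties of its spot are described here. The spot lies in column 163 of 164, and in the last 14 columns 8.4% of detected probes were at least 2-fold higher after surgery, against 0.797% in the other columns. The share that was at least 2-fold lower was 3.19% there and 1.83% elsewhere. In column 163 itself, of 268 detected probes 32 (11.9%) had a ratio past 2-fold upward and 9 (3.36%) downward, with 2 below Ikbkb. Both shares were raised at the edge, and its part in the Ikbkb ratio was not tested. The second property is the size of the spot, measured as its extent across the columns in the scanner output, which was 19.1 in the control and 30.0 after surgery. Only 0.519% of the spots on the control array were as small, and 9.73% on the surgery array were as large, with medians over all spots of 26.7 and 26.4. The part of the spot size in the ratio was not tested. The ratio from the median pixels, 351 and 146.5, was -1.17.

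Tbk1, the kinase of the interferon branch, had a smaller drop. The processed signal of its spot was 191 ± 19.4 in the control and 80.2 ± 8.89 after surgery, both well above background. The log2 ratio was -1.10 ± 0.22, or 2.14-fold lower after surgery. The 2-fold line lies within 1 spot error of this value, at 0.453 errors. Among the detected probes 572 (1.30%) had a lower ratio. With the median pixels, 229 and 124, the ratio was -0.82 and thus short of 2-fold. The extent of the Tbk1 spot was 25.3 in the control and 21.9 after surgery, where 1.59% of spots were as small. The part of the spot size in this ratio was not tested.

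Hspd1, the chaperonin, was far above background on both arrays, brighter than 84.2% of probes in the control and 78.2% after surgery. Its processed signal was 1582 ± 158 and 709 ± 71.0, while the brightest of the negative controls reached 13.5 and 38.7. The log2 ratio was -1.02 ± 0.20, or 2.03-fold lower, and it exceeded a 2-fold drop by 0.107 errors. A lower ratio was found for 789 detected probes (1.79%). The Hspd1 value moved least with the processing, since its median pixels of 1571 and 749 gave -0.94.

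**Figure D1:**
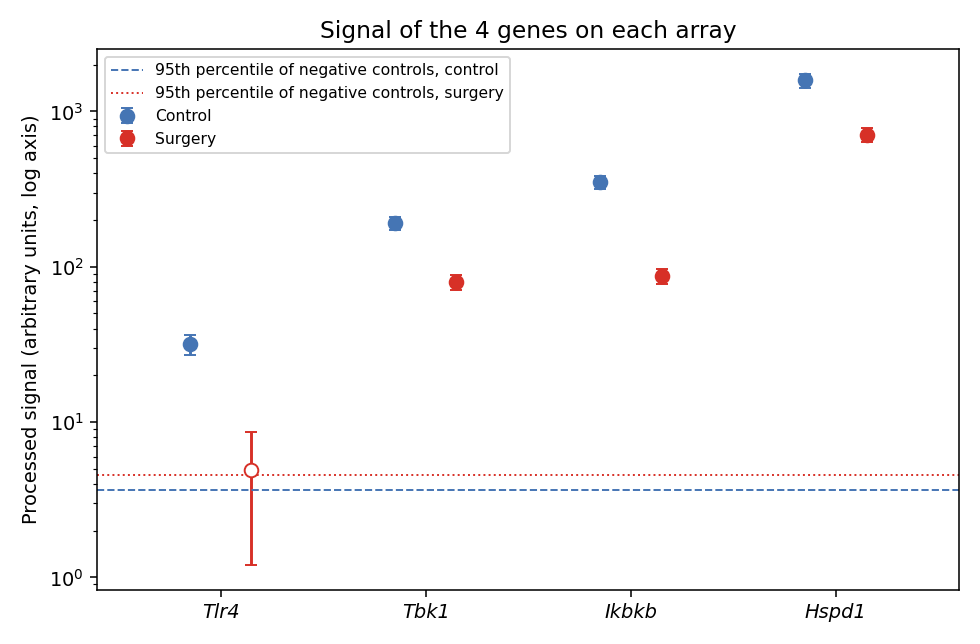
Processed signal of the 4 genes (log axis, arbitrary units) on the control array (blue) and the surgery array (red). Bars are spot errors, the open circle marks the spot that was not well above background, and the dashed and dotted lines are the 95th percentiles of the negative controls, 3.67 and 4.56. Only the surgery spot of Tlr4, at 4.92, lies near these lines.

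The share of probes past 2-fold depended on brightness, so that each gene was set beside probes of similar signal. Ranked by mean normalized signal in 4 equal groups of detected probes, Tbk1 and Ikbkb belong to the group with signals of 72.3 to 221. In that group 2.38% of probes were at least 2-fold lower and 1.92% at least 2-fold higher. Hspd1 belongs to the next brighter group, 221 to 1100, where 1.81% were at least 2-fold lower and 0.89% at least 2-fold higher. In the plot of ratio by signal, Ikbkb lies clearly below the bulk of the probes, whereas Tbk1 and Hspd1 lie at its lower margin.

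**Figure D2:**
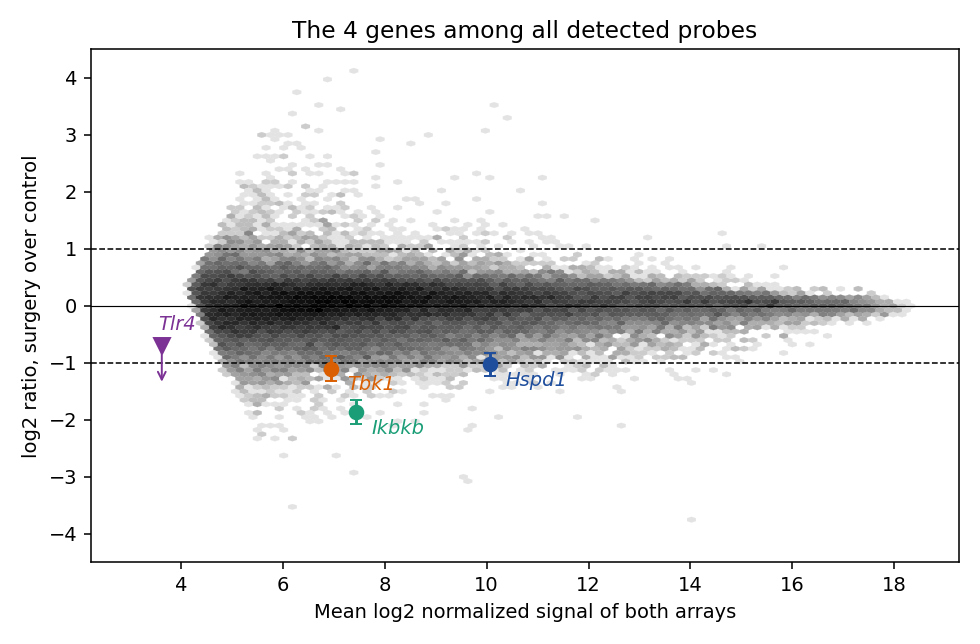
log2 ratio of surgery over control against mean log2 normalized signal of both arrays for the 44044 detected probes (grey, darker where there are more). Points are the 3 genes detected on both arrays with their spot errors, and dashed lines mark 2-fold. The triangle is the upper bound of -0.70 for Tlr4, which holds for the processed signal only.

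The probes printed around each spot did not share its drop as a group. In a window of 5 rows and 2 columns on either side, the median log2 ratio of the detected neighbors was 0.01 around Tlr4, 0.17 around Tbk1, 0.03 around Ikbkb and -0.01 around Hspd1. At least 2-fold lower were 2 of 42 neighbors of Tlr4, 0 of 35 of Tbk1, 0 of 33 of Ikbkb and 3 of 41 of Hspd1. The share over all detected probes was 1.95%. The lowest of the 33 neighbors of Ikbkb was at -0.89. Hspd1 differed from these in that 2 of its 41 neighbors had ratios lower than its own, the lowest at -1.08. After the median of its window was subtracted, Tbk1 was at -1.26, Ikbkb at -1.89 and Hspd1 at -1.01. The spots of Tlr4, Tbk1, Ikbkb and Hspd1 lie in rows 30, 60, 62 and 121 of 384. Ratios were summarized by array column but not by array row, and the part of the row in these ratios was not tested.

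**Figure D3:**
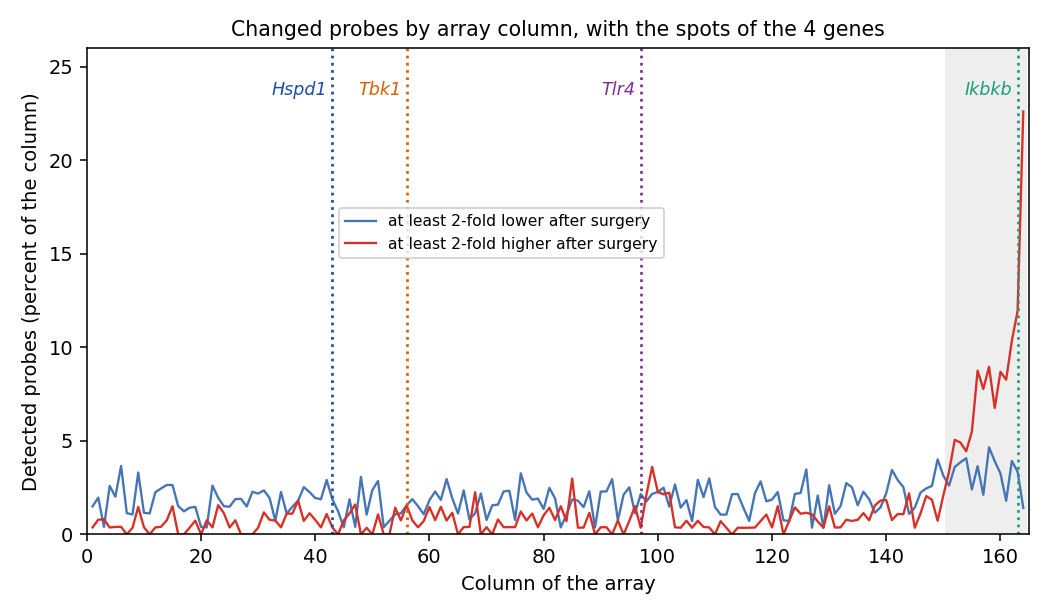
Percent of detected probes in each array column that were at least 2-fold lower (blue) or higher (red) after surgery. Dotted lines mark the columns of the 4 spots and the last 14 columns are shaded. The Ikbkb spot alone lies in the shaded columns, where probes past 2-fold were mostly higher.

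Each of the 4 genes had a single spot, so that its own scatter within an array is unknown. The scatter of the ratio between spots was measured on 15 other probes that had at least 10 usable spots each. Between the spots of 1 probe the log2 ratio had an SD of 0.05 at the median and 0.149 at most, the latter for a probe with a mean signal of 93.1. These SDs were below the spot errors of the 3 detected genes, 0.20 to 0.22. The next dimmest of the 15 probes had a mean signal of 720, above those of Tbk1 (123) and Ikbkb (173). These values describe the scatter of the ratio between spots of 1 probe and say nothing of mice or pools.

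The way the signal was computed moved the 3 dimmer genes more than Hspd1. Over 8 alternatives the ratio of Tlr4 ranged from -2.69 to -0.58. The range was -1.26 to -0.74 for Tbk1, over 8 alternatives, and -1.16 to -0.94 for Hspd1, over 8. For Ikbkb the range was -2.02 to -1.08 over 7 alternatives. All of these ratios were below 0, and Ikbkb alone stayed at least 2-fold lower in each, whereas Tbk1 did so in 5 of 8 and Hspd1 in 4 of 8. The smallest drops of all 4 genes came from the normexp correction, followed by the median pixel, and the cause was not tested.

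**Figure D4:**
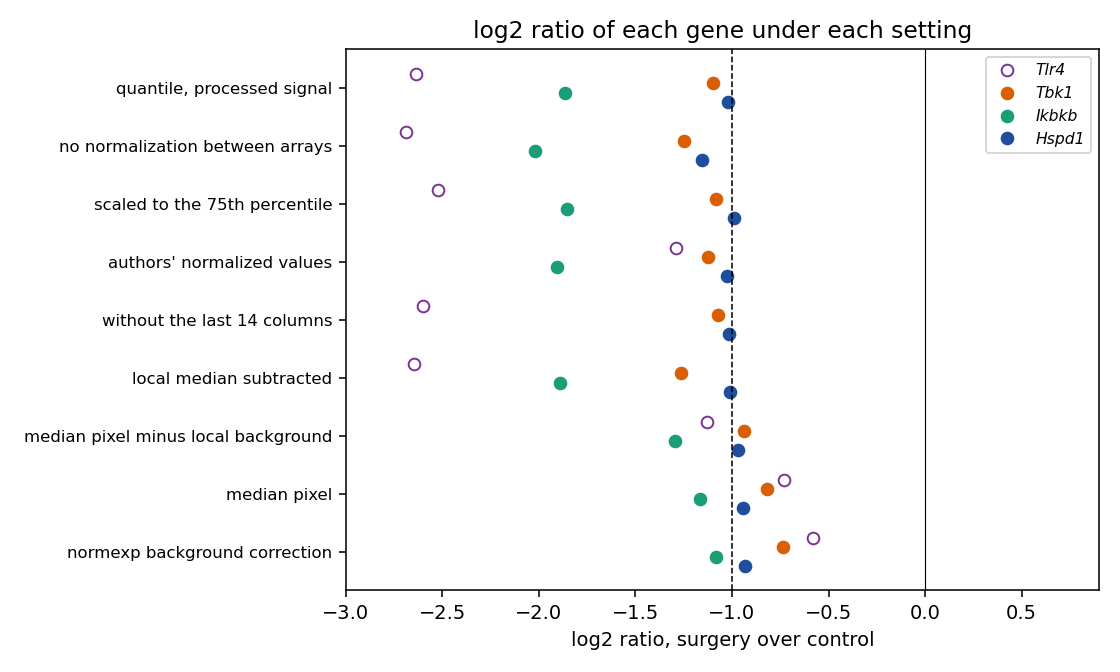
log2 ratio of surgery over control for each gene (horizontal axis) under the processing as reported (top) and its alternatives. Open circles are the measured ratios of Tlr4, whose surgery spot was not well above background, and the dashed line marks a 2-fold drop. All points lie below 0, and Ikbkb lies at or below -1.08 throughout.

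The rest of the pathway could be followed only where the supplementary probe table names a probe. Lists of 121 other genes of the pathway were used, comprising ligands and co-receptors, receptors, adaptors, kinases, nucleic acid sensors, inhibitors, transcription factors, targets, chaperones and autophagy genes. Of these, 10 have a named probe and 8 of them were detected on both arrays. Since the authors' table lists genes past 2-fold on these arrays, the counts are conditional on a change and are not independent evidence. Of the 8 genes, 4 were at least 2-fold lower and 4 at least 2-fold higher, beside 1.95% and 1.47% of all detected probes. No ligand, adaptor, further kinase, nucleic acid sensor or transcription factor of the lists has a named probe, so that the steps directly above and below the 2 kinases were not followed here.

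The lower genes were 1 each from the inhibitors, targets, chaperones and autophagy genes. Ppm1b, a phosphatase that can dephosphorylate IKKβ and TBK1, went from a processed signal of 3164 to 1456 with a log2 ratio of -1.03. Bcl2l1, which encodes the survival protein BCL-xL and is a target of NF-κB, went from 152 to 51.4 with a ratio of -1.42. Calr, the calcium-binding chaperone calreticulin of the endoplasmic reticulum, went from 7042 to 3418 with a ratio of -1.03. Atg4c, a protease that processes the ATG8 proteins of autophagy, went from 1827 to 699 with a ratio of -1.26. Of these 4 drops, that of Atg4c alone was past 2-fold with the median pixel, at -1.13, and the other 3 lay between -0.99 and -0.86.

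The 4 higher genes were 2 targets, 1 receptor and 1 chaperone. Lcn2, which encodes the iron-sequestering protein lipocalin 2, went from a processed signal of 167 to 1201, a log2 ratio of 2.99 that was 2.74 with the median pixel. The chemokine gene Ccl5 went from 262 to 499, a ratio of 1.10 that was 0.91 with the median pixel. Cxcl2, a neutrophil-attracting chemokine, was detected after surgery but not in the control, and its processed signal there was at least 19.2-fold higher after normalization, a log2 ratio of 4.26 that was 2.27 with the median pixel and 2.01 with normexp correction. Its spot lies in column 151, the first of the last 14 columns. The receptor gene Il17re, at column 160, went from 52.1 to 117 with a ratio of 1.31, and 0.74 with the median pixel. Dnajb11, a co-chaperone of the endoplasmic reticulum, went from 29.1 to 78.5 with a ratio of 1.55, and 0.67 with the median pixel. The remaining named gene, Tnip1, an inhibitor of NF-κB signaling, had a spot marked as an outlier and was left out. The 2 chaperones of the endoplasmic reticulum thus differed in direction, and neither is a partner of HSP60 in mitochondria. The 4 lower genes have their spots in array rows 37 to 119 and the 4 higher genes in rows 161 to 355, while Cxcl2 lies in row 38. The part of the row in these ratios was not tested.

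**Figure D5:**
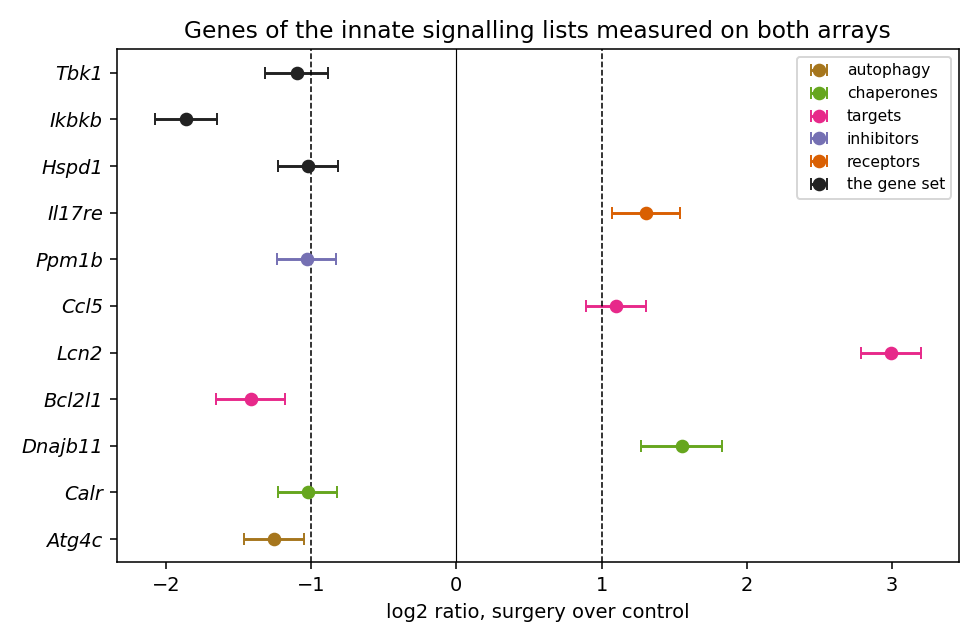
log2 ratio of surgery over control, with spot errors, for the 3 detected genes of the set (black) and the 8 genes of the pathway lists detected on both arrays, colored by list. Dashed lines mark 2-fold. Of the 8 genes, 4 lie at or below -1 and 4 at or above 1, with Lcn2 farthest, at 2.99.

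The study's supplementary pathway lists, drawn up from the genes that passed its filter on these arrays, place the members together in several KEGG pathways. The list for NOD-like receptor signaling, the cytosolic sensing pathway of bacterial products, holds 3 of the 4 genes, Tlr4, Tbk1 and Ikbkb. Of its 7 other genes 6 have a named probe, with 3 at least 2-fold lower, 2 higher and 1, Cxcl2, detected after surgery only. The list for IL-17 signaling holds Tbk1 and Ikbkb, and of its 3 other named genes 2 were higher, Lcn2 and Il17re, and 0 were lower. The list for Legionellosis holds Tlr4 and Hspd1, and of its 2 other named genes 1 was higher and Cxcl2 was detected after surgery only. In the Ras list, which also holds both kinases, 3 of 6 other named genes were lower and 3 higher. Ikbkb alone stands in the MAPK list, with 6 of 9 other named genes lower and 3 higher, in the insulin list, with 3 of 7 lower and 2 higher, and in the chronic myeloid leukemia list, with 3 of 5 lower and 2 higher. Tlr4 alone stands in the HIF-1 list, in which 1 of 6 other named genes was lower and 4 were higher. With the members left out, both directions were thus present among the other named genes in 6 of these 8 lists. Over all detected probes 1.95% were at least 2-fold lower and 1.47% at least 2-fold higher. In the MAPK, insulin, chronic myeloid leukemia and Legionellosis lists, every higher gene has its spot in the last 14 columns. There 8.4% of detected probes were at least 2-fold higher, against 0.797% in the other columns. Mecom, lower in the MAPK and chronic myeloid leukemia lists, lies there too. By array row, the lower genes of the 8 lists have their spots in rows 4 to 129 of 384, a range that also holds the 4 members. The higher genes lie in rows 296 to 355, except Runx1 in row 46, Rhoa in row 151 and Lcn2 in row 161. The part of the position was not tested.

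The annotation terms in the probe table link the 4 genes beyond the pathway lists. Tlr4 and Ikbkb share the term for phosphorylation of IκB, and Tlr4 and Tbk1 share activation of the innate immune response. Tlr4 and Hspd1 share lipopolysaccharide binding and MyD88-dependent Toll-like receptor signaling. Tbk1 and Ikbkb share protein kinase activity. Of the lncRNAs in the shortened copy of the probe table, which had passed the same filter, 0 are listed with one of the 4 genes and 0 lie within 100 kb of one. Rows missing from this copy could not be searched. The nearest lncRNAs in the copy were 288 kb from Ikbkb and 609 kb from Tbk1.

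The named probes nearest to each gene in log2 signal over the 2 arrays were sought among 353 mRNA probes detected on both. For Tbk1 these were Sec23b, a component of the COPII coat, at a distance of 0.02 with a log2 ratio of -1.10, and Rad52, a DNA recombination gene, with -1.06. For Ikbkb they were Leng8, with -1.90, and Cnot2, a subunit of the CCR4-NOT deadenylase, with -1.41. For Hspd1 they were Atg4c, with -1.26, and 2610507B11Rik, with -1.01. With 2 arrays, likeness means only that a probe had a similar brightness on each.

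Markers of other cells also differed between the arrays. Of 19 markers of the meninges and arachnoid, the membranes around the brain, 17 have a named probe, and all 15 that both arrays detected were past 2-fold toward surgery, at log2 ratios from 1.01 to 3.29 with 1.24 as the median, beside 1.47% of all detected probes. A named probe had already passed the authors' 2-fold filter, so that this count was fixed by the naming. The list was chosen with earlier results of these data known, so that its direction is not independent evidence either. Among them, Slc47a1, a transporter, went from a processed signal of 439 to 3977. The summed processed signal of the 17 probes was 54115 in the control and 131171 after surgery, and 4 of them lie in the last 14 columns. The direction was opposite to that of the 4 genes, and the part of meningeal tissue in their ratios was not tested. The oligodendrocyte marker Tspan2, a tetraspanin, was at -0.99. Of the neuronal markers, Camk2a was at 1.35 and Tbr1 was detected on the control array only. Of 10 microglial markers, the cells best known for Tlr4 in the brain, 0 have a named probe, and the same holds for 6 astrocyte markers, so that the share of these cells and the labelled tissue could not be checked with their defining genes. The monocyte marker Ccr2, with 1 of 4 markers of that list named, was at 2.14, and its median pixel gave 0.49.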

How the data were processed

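RNA of 3 pooled hippocampi per group was hybridized to 1 one-color array per group, and groups were taken from the sample labels. The deposited intensities are the output of Agilent Feature Extraction 11.0.1.1, with background subtracted and spatial trends removed within each array and no normalization between arrays. The authors also deposited a table of log2 values after quantile normalization in GeneSpring GX, used here as an alternative. Their fold changes and p-values were not used.

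The log2 processed signals of all non-control spots were quantile normalized, spots of a probe were averaged, and spots marked as outliers on either array were left out. Probes positive and well above background on both arrays counted as detected. For a probe detected on 1 array, the fold is a bound against the dimmest signal well above background on the other, where the undetected signal lay below it. The control signal of Cxcl2 did not lie below it, and the measured ratio is given. No test was run, since there is 1 array per group, a number that sets the precision. The spot errors of the 2 arrays were added in quadrature as log2 errors.

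Alternatives were no normalization, the 75th percentile, the authors' values, the median pixel with and without local background, normexp correction (offset 50), subtraction of the local median, and other probe filters. Normexp was run on median pixels, since the files used here hold no mean pixel column, although the plan had named one. Probe names, sequences, positions and pathway lists came from shortened copies of the supplementary tables, in which the mRNA sheet holds 446 probes. Named genes are the 4 members, all genes of the pathway and marker lists with a named probe, the pathway lists' other genes by count, and the 2 nearest named probes of each member. The values of some marker genes are not reported here. Members and lists were chosen with earlier results of these data known. The calculations were tested on simulated data for 44044 probes, and 100% of the 200 that had been changed were found, with 0 false calls. The changes put in were larger than 2-fold and spared the dimmest probes, and the noise was below the spot errors, with no trend across the array. This check covers the computation only and does not bear on calls near 2-fold in the real arrays. The software was Python 3.11.15, numpy 2.4.6, pandas 2.3.3, matplotlib 3.10.9, R 4.3.3 and limma 3.58.1.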

Additional observations from a re-analysis of the deposited data

How the results depend on the processing

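With 1 array per group, no replicate could be left out. No paired analysis was possible because each group has 1 array. The ratios of all 4 genes were below 0 under each alternative that gave a value. Ikbkb has no value without the last 14 columns, which hold its spot. Hspd1 and Tbk1 lie close enough to 2-fold that their side of it depended on the signal used, and Tlr4 on the surgery array is limited by its signal over background.

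With normexp correction the log2 ratio was -0.58 for Tlr4, -0.74 for Tbk1 and -1.08 for Ikbkb, and 1 of the 3 detected genes was past 2-fold. By the median pixel these ratios were -0.73, -0.82 and -1.17, again with 1 gene. With the median pixel minus local background, Tlr4 was at -1.13 and Ikbkb at -1.30, with 1 gene. The authors' normalized values gave -1.29 for Tlr4. Among the detected probes brighter than the median 1 of the genes remained for counting, Hspd1, and it was at least 2-fold lower.

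Against 858 probes at least 2-fold lower, the count was 1483 without normalization, 191 with normexp correction, 243 with the median pixel, 356 with it minus local background, 2748 with no filter on dim probes and 285 among the brighter probes. Against 647 probes at least 2-fold higher, it was 176 with normexp correction, 210 with the median pixel, 295 with it minus local background, 348 without the last 14 columns, 2384 with no filter and 130 among the brighter probes. Of the pathway genes, against 4 lower, 2 were lower with scaling to the 75th percentile, 1 with normexp correction, 1 with the median pixel and 2 with it minus local background. Against 4 higher, 1 was higher with normexp correction, 1 with the median pixel, 1 with it minus local background and 2 among the brighter probes. Other than by the choice of spots or probes that an alternative itself makes, the cause was not tested.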
